A study of Mus musculus with 6 samples.

Results

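The variable segments of the immunoglobulin light chains were followed in mouse bone marrow. Every entry whose name starts with Igkv (kappa) or Iglv (lambda) was taken, which gave 165 of the 47561 entries measured in each library, 162 of them kappa and 3 lambda. Membership used names only and no measured value, but the segments were picked for study with earlier results of these data known. Bone marrow RNA was sequenced in 6 libraries. The 3 control libraries are labelled as negative control, and the 3 CUMS libraries came from mice put through chronic unpredictable mild stress, a rodent procedure of changing mild stressors used to model depression, for 4 weeks. Strain, age and sex of the mice are not given in the labels. The study's title names myelopoiesis, and setting CUMS against control shows which marrow transcripts differ after the stress.

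Light chains are built during B cell development in the bone marrow, where a developing B cell joins 1 variable (V) segment to 1 joining (J) segment ahead of a constant gene. The V segment supplies most of the variable domain of the chain, which helps bind antigen, so each B cell and its progeny transcribe 1 chosen segment strongly, and the marrow as a whole gives a sum over many such choices. In mice most light chains are kappa. The RAG1 and RAG2 proteins cut the DNA for the joining, kappa segments in the same orientation as the J segments join by deletion and the others by inversion, and plasma cells carry far more light-chain transcript per cell than other B cells. In RNA from whole marrow, a change in the number of cells that use a segment and a change in RNA per cell cannot be told apart.

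The kappa segments lie on chromosome 6 upstream of Igkj1, the first kappa J segment (chr6:70722562-70722599), and Igkc, the kappa constant gene (chr6:70726435-70726966), both on the plus strand of GRCm38. The 3 lambda segments lie on the minus strand of chromosome 16. Family 3 of the kappa segments is shown because Igkv3-10 and Igkv3-4 rose in CUMS, Igkv3-2 had lower values, and Igkv3-5 is the member closest to Igkv3-10 in sequence. Igkv3-5 falls outside the rule for named genes and was picked after its values were seen. Each line gives the last 150 coding bases of the segment, 5′ to 3′ on the coding strand, from GENCODE M21 (GRCm38), in the V exon. They end in the codons that open CDR3, the loop that joining to a J segment completes. Capitals mark bases that differ from Igkv3-10. The stretches are chr6:70573081-70573230 for Igkv3-10, chr6:70663746-70663895 for Igkv3-5, chr6:70672228-70672377 for Igkv3-4 and chr6:70698918-70699067 for Igkv3-2, all on the plus strand.
Igkv3-10: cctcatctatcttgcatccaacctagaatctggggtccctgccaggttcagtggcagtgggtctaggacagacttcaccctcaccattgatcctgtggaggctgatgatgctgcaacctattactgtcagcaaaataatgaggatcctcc
Igkv3-5: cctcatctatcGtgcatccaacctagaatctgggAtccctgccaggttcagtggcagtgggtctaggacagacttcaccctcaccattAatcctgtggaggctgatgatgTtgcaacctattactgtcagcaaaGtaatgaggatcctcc
Igkv3-4: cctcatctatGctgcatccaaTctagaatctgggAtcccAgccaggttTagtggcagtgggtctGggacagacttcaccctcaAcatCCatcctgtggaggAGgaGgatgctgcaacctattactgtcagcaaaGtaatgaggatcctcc
Igkv3-2: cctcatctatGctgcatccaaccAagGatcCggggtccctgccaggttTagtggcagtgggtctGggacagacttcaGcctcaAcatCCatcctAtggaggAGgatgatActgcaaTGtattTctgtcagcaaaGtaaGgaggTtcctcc

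Over the 359 coding bases Igkv3-5 was 98.3% identical to Igkv3-10, with 6 differences, of which 5 are in the stretch shown. Igkv3-4 was 91.4% identical and Igkv3-2 91.1%, with 13 and 20 differences in that stretch. Segments this alike can trade reads: 4.3% of the 151-base windows of Igkv3-10, the length of 1 read, also occur in Igkv3-5. Igkv3-4 and Igkv3-2 shared no such window with another gene. Among the 86 tested segments with such windows, 74 shared none with another annotated transcript and 2 shared over 50%, Igkv2-137 and Igkv8-16.

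The lambda segments Iglv1 and Iglv2 are shown because both had lower values in CUMS and are near copies of each other. The stretches are chr16:19085017-19085166 and chr16:19260401-19260550, both on the minus strand, and capitals mark bases that differ from Iglv1.
Iglv1: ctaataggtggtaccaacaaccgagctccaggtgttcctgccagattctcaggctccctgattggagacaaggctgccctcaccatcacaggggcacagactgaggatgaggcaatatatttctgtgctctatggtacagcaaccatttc
Iglv2: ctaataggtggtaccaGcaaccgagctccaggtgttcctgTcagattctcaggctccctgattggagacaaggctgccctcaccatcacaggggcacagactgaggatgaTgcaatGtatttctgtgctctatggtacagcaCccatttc

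Iglv2 was 96.9% identical to Iglv1 over 351 coding bases, yet neither shared a read-length window with another gene. Iglv3, the third lambda segment, was 57.6% identical to Iglv1.

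Values are FPKM, a fragment count divided by the length of the transcript and by the depth of the library, so that levels can be set side by side between genes. Between 21334 and 23224 entries were above 0 in a library, and FPKM summed to 561563 to 658595. The column headers carry a digit whose meaning is not stated, here called the header code: replicate 1 of either group has code 1, and replicates 2 and 3 have code 2. Replicate 1 had the highest Igkc value in both groups. The marrow label was met by its defining transcripts: neutrophil markers (S100a8 and 6 others) summed to 45623 to 64165 FPKM in control libraries and 48445 to 51089 in CUMS ones. Erythroid markers (Hbb-bs and 5 others) summed to 135827 to 159083 and 158175 to 192853 FPKM. None of the 7 neutrophil or 6 erythroid markers passed the test with group alone or with the replicate block, and 1 neutrophil marker was higher with the header code as a term.

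Of the 165 segments, 87 reached 1 FPKM in at least 3 of the 6 libraries and were tested, 84 kappa and all 3 lambda. The other 78 were not tested. Among those, 39 were listed at 0 in all 6 libraries and the other 39 never exceeded 1.63 FPKM. Only 1 tested segment passed with all 3 CUMS libraries and no control library at the minimum, and 72 were at 1 FPKM or more in every library. RefSeq types 60 members as pseudogenes, and 2 of these were tested. Levels were spread widely: 30 segments averaged at least 10 FPKM over the 6 libraries.

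Iglv1 was the most abundant segment, at 77.9 FPKM over the 6 libraries. It was followed by Igkv1-117 at 44.6, Igkv15-103 at 39.7, Igkv14-126 at 38.3, Igkv10-96 at 30.4, Igkv1-110 and Igkv1-135 at 29.1, Igkv19-93 at 21.3, Igkv6-15 at 19.6 and Igkv6-17 at 19.2 FPKM. Iglv1 was above the others of this order in every library. Each later pair of neighbours had overlapping ranges over the 6 libraries, so their order is not firm. No single segment dominated the kappa pool. The 10 most abundant kappa segments held 37.7% ± 1.25 (SD, n = 3) of the summed kappa FPKM in controls and 37.6% ± 1.00 (SD, n = 3) in CUMS. The effective number of kappa segments (the inverse Simpson index, which would equal the number of segments if all were equally abundant) was 42.4 ± 1.66 in controls and 40.2 ± 1.41 in CUMS (SD, n = 3 each). The groups overlapped in both measures.

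In CUMS marrow the kappa variable transcripts were higher in sum and the lambda variable transcripts lower. The kappa segments summed to 730.1, 620.0 and 627.9 FPKM in control replicates 1 to 3 and to 894.8, 905.1 and 815.3 in CUMS, or 659.3 ± 61.4 against 871.7 ± 49.2 (SD, n = 3 each), a ratio of 1.32. The 3 lambda segments summed to 138.0, 132.3 and 123.5 FPKM in controls and to 94.3, 96.5 and 100.2 in CUMS, or 131.3 ± 7.30 against 97.0 ± 2.97, a ratio of 0.739. In neither sum did the groups overlap. Lambda made up 15.9%, 17.6% and 16.4% of all light-chain variable FPKM in the controls and 9.54%, 9.63% and 10.9% in CUMS. These sums are descriptions and carry no test. Between the libraries with header code 1 the kappa ratio was 1.23 and the lambda ratio 0.684, and among the 4 with header code 2 they were 1.38 and 0.769.

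Igkc and the sum of the lambda constant genes differed less than the variable sums did. Igkc, which every kappa transcript carries once spliced, read 1048, 726.7 and 746.8 FPKM in controls and 1152, 859.3 and 880.3 in CUMS. Its groups overlapped and its log2 change of 0.20 did not pass the test (limma adjusted p = 0.657, and 0.118 with the replicate number as a block). The 3 lambda constant genes Iglc1 to Iglc3 summed to 316.5, 243.1 and 232.9 FPKM in controls and to 230.5, 201.9 and 214.6 in CUMS, each CUMS library below each control. Iglc1, whose J segment is joined mainly to Iglv1, had a log2 change of −0.44, a ratio of 0.724 (limma adjusted p = 0.251, and 0.0273 with the block). Iglc2 had −0.19 and Iglc3 −0.21, with limma adjusted p = 0.527 and 0.474. The lambda constant sum relative to Igkc was 0.302, 0.335 and 0.312 in controls and 0.200, 0.235 and 0.244 in CUMS, again with no overlap. Divided by Igkc, the kappa variable sum differed by a ratio of 1.15 in place of 1.32, and its groups overlapped. Divided by the lambda constant sum, the lambda variable sum differed by a ratio of 0.897, and its groups overlapped too.

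**Figure D1:**
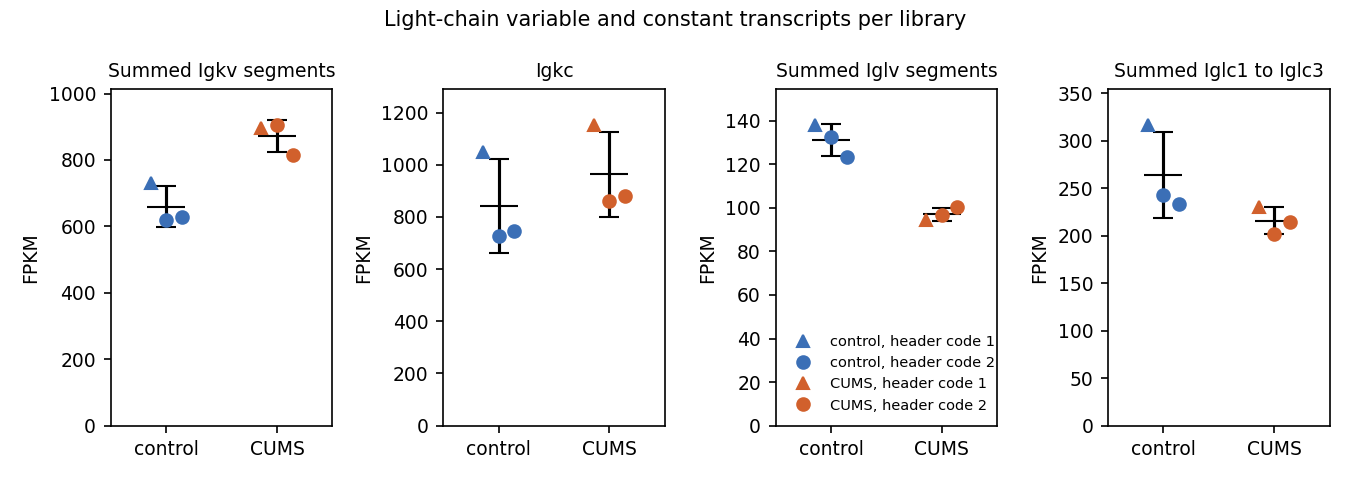
Summed FPKM of the 162 kappa variable segments, Igkc, the 3 lambda variable segments, and Iglc1 to Iglc3, in control and CUMS libraries. Points are libraries, triangles and circles the header codes 1 and 2, and bars the mean and SD of 3 libraries. The kappa variable sum was above every control in each CUMS library and the lambda variable sum below, while Igkc overlapped between groups.

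Among the 87 tested segments, 6 rose and 1 fell in CUMS with limma on log2(FPKM + 1) at an adjusted p under 0.05, taken over all 12302 tested genes. Over all tested genes the same rule called 0.618% higher and 0.455% lower. The median log2 change of the 87 segments was 0.28, against −0.0017 over all tested genes, and 61 of the 87 had a change above 0. When each library was scaled to 1 common total, the median of all genes went to −0.04, and 7 segments were called higher and 4 lower. With the replicate number as a block, 27 segments were higher and 6 lower, against 3.49% and 4.31% of all tested genes. With the header code as a term they were 32 and 7, against 6.06% and 7.31%. For 30 segments all 3 CUMS libraries lay above all 3 controls and for 8 they lay below, where over all tested genes 10% and 12.1% did so. The 7 segments called with group alone were called again in both of these fits and in the 4 libraries with header code 2. Every segment named here that passed with the block also passed with the header code as a term. With no filter beyond a value above 0, only Igkv3-10 and Igkv2-137 were called, at adjusted p = 0.0307 and 0.0391, and with a filter of 0.1 FPKM in the mean Igkv4-70 was at 0.0601.

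The number of calls depended on single libraries. It was 12 higher and 1 lower without control replicate 1, 2 and 0 without control replicate 2, and 1 and 0 without control replicate 3. Without CUMS replicate 1 it was 3 higher and 2 lower, and without CUMS replicate 2 or CUMS replicate 3 it was 1 and 0. Igkv3-10 was called in all 6 of these fits, with a largest adjusted p of 0.0171. The other 6 segments were called in 1 or 2 of the 6 fits each.

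Igkv3-10 had the largest rise. It read 6.55, 6.35 and 5.28 FPKM in controls and 28.8, 26.9 and 23.5 in CUMS. Every CUMS library was far above every control, and the log2 change was 1.96 ± 0.12 (SE; limma adjusted p = 0.00115). Igkv3-10 spans chr6:70572633-70573230 on the plus strand (GRCm38), 149.3 kb upstream of Igkj1, with a short leader exon ahead of its V exon as in other V segments. Igkv3-5, which is nearly the same sequence, read 6.41, 5.14 and 4.15 FPKM in controls and 6.77, 7.15 and 6.26 in CUMS. Its groups overlapped and its log2 change of 0.32 did not pass the test (limma adjusted p = 0.346, and 0.103 with the block).

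Igkv3-4, at chr6:70671789-70672377, rose from 7.45, 4.99 and 7.53 FPKM in controls to 19.8, 19.1 and 15.7 in CUMS. Its log2 change was 1.34 ± 0.16 (SE; limma adjusted p = 0.0135), and the groups were well apart. Without CUMS replicate 1, 2 or 3, or control replicate 3, its adjusted p lay between 0.0504 and 0.078. In the same family Igkv3-2, at chr6:70698468-70699067 and 23.5 kb from Igkj1, went the other way, with 24.5, 19.8 and 17.5 FPKM in controls and 14.5, 13.4 and 12.1 in CUMS. Each CUMS library was below each control, and the log2 change of −0.58 did not pass with group alone but did with the block (limma adjusted p = 0.0998, and 0.0114 with the block).

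Igkv6-32, at chr6:70074024-70074584 on the minus strand, read 11.8, 9.92 and 7.63 FPKM in controls and 21.4, 27.1 and 22.7 in CUMS. The groups did not overlap, and the log2 change was 1.21 ± 0.16 (SE; limma adjusted p = 0.0185). Igkv8-21, at chr6:70314895-70315452 on the minus strand, read 7.34, 5.54 and 6.38 FPKM in controls and 14.7, 12.0 and 15.1 in CUMS. It was higher in each CUMS library than in any control, by a log2 change of 1.01 ± 0.13 (SE; limma adjusted p = 0.0179). The adjusted p of Igkv6-32 was 0.0732 to 0.1001 without any 1 of control replicates 2 and 3 and CUMS replicates 2 and 3. That of Igkv8-21 was 0.0541 to 0.1001 without any 1 library other than control replicate 1.

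Igkv10-94, at chr6:68704508-68704978 on the minus strand and 2018 kb from Igkj1, was nearly constant within the controls at 5.57, 5.86 and 5.54 FPKM and read 9.70, 11.4 and 9.37 in CUMS. Its log2 change was 0.74 ± 0.11 (SE; limma adjusted p = 0.0232). Igkv4-70, at chr6:69267888-69268412 on the minus strand, was the least abundant of those that rose, with 1.37, 0.912 and 1.26 FPKM in controls and 3.82, 6.35 and 3.16 in CUMS. Its groups were apart, with a log2 change of 1.28 ± 0.22 (SE; limma adjusted p = 0.0392). Neither kept its call without any 1 library other than control replicate 1, where the adjusted p was 0.0541 to 0.132 for Igkv10-94 and 0.0793 to 0.162 for Igkv4-70. With the libraries scaled to 1 common total they were 0.0546 and 0.0504. Together the 6 segments that rose summed to 35.8 ± 3.75 FPKM in controls and 96.9 ± 6.81 in CUMS. They were picked by their rise in these same libraries, so their sum had to be higher in CUMS and adds no support. Without these 6 segments the kappa sum was 1.24 times as high in CUMS, 623.6 ± 57.7 against 774.8 ± 42.6 FPKM (SD, n = 3 each).

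Igkv2-137 was the segment that fell. It read 17.3, 16.5 and 16.4 FPKM in controls and 10.03, 9.29 and 9.43 in CUMS, with little spread within either group and a log2 change of −0.75 ± 0.09 (SE; limma adjusted p = 0.012). It lies at chr6:67555636-67556216 on the plus strand, 3166 kb from Igkj1. In GENCODE, 71.7% of its read-length windows also occur in the transcript Gm42889, which was not used here. Reads in those windows cannot be told apart by sequence. Its adjusted p was 0.0622 to 0.0896 without any 1 of control replicates 2 and 3 and CUMS replicates 2 and 3.

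**Figure D2:**
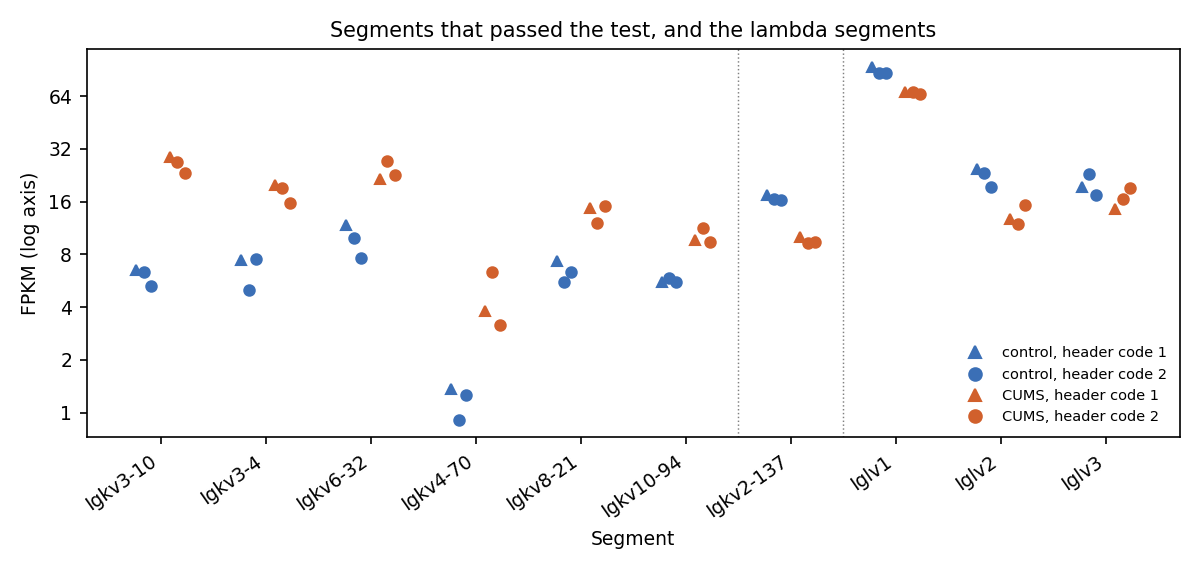
FPKM on a log axis, per library, of the 6 segments that rose, of Igkv2-137, which fell, and of the 3 lambda segments, with controls in blue and CUMS in orange. Triangles are libraries with header code 1 and circles those with header code 2. Igkv3-10 lay at 5.28 to 6.55 in controls and 23.5 to 28.8 in CUMS, and only Iglv3 overlapped between groups.

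The 3 lambda segments all had lower means in CUMS, and none passed the test with group alone. Iglv1 read 93.9, 86.2 and 86.6 FPKM in controls and 67.2, 67.9 and 65.9 in CUMS. Each CUMS library was below each control, with a log2 change of −0.40 ± 0.08 (SE; limma adjusted p = 0.0751, and 0.0214 with the block). Iglv2 read 24.6, 23.2 and 19.4 FPKM in controls and 12.7, 12.0 and 15.3 in CUMS. Its groups were apart too, with a log2 change of −0.71 ± 0.13 (SE; limma adjusted p = 0.0546, and 0.0237 with the block). Iglv3, which like Iglv2 joins mainly to the J segment of Iglc2, read 19.5, 22.8 and 17.5 FPKM in controls and 14.5, 16.6 and 19.0 in CUMS. Its groups overlapped, and its log2 change of −0.24 passed in none of the 3 fits (limma adjusted p = 0.454, and 0.233 with the block).

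Among the most abundant kappa segments, most had higher values in CUMS without passing the test with group alone. Igkv1-117 read 40.5, 25.2 and 29.3 FPKM in controls and 57.8, 55.6 and 59.5 in CUMS, with no overlap and a log2 change of 0.87 (limma adjusted p = 0.0593, and 0.0122 with the block). Igkv14-126 read 33.9, 24.7 and 23.1 FPKM in controls and 55.7, 49.1 and 43.3 in CUMS, also with no overlap and a log2 change of 0.85 (limma adjusted p = 0.0608, and 0.00353 with the block). RefSeq types Igkv14-126 as a pseudogene, while GENCODE types it as a V gene. Its coding sequence there holds 0 in-frame stop codons, as for nearly every segment with a coding sequence there. Entries that RefSeq types as pseudogenes held 4.49% ± 0.46 of the kappa pool in controls and 6.04% ± 0.46 in CUMS, and 0.389% ± 0.03 and 0.381% ± 0.13 without Igkv14-126 (SD, n = 3 each).

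Igkv10-96, Igkv1-110, Igkv6-15 and Igkv6-17 had log2 changes of 0.42, 0.60, 0.46 and 0.80, with no overlap between groups in any of the 4. Their limma adjusted p was 0.0815, 0.114, 0.0776 and 0.0546, and 0.0236, 0.011, 0.0239 and 0.024 with the block. Igkv1-110 shows the pattern, with 25.9, 21.1 and 21.7 FPKM in controls and 42.8, 33.6 and 29.9 in CUMS. Igkv15-103 and Igkv1-135 were alike between groups, at 38.2 ± 4.29 against 41.3 ± 3.03 and 27.7 ± 3.12 against 30.4 ± 1.24 FPKM (SD, n = 3 each). Their log2 changes were 0.12 and 0.14, with limma adjusted p = 0.681 and 0.606. Igkv19-93 read 23.8, 23.3 and 25.5 FPKM in controls and 19.5, 19.5 and 16.1 in CUMS. All 3 CUMS libraries were lower, with a log2 change of −0.38 that passed only with the header code as a term (limma adjusted p = 0.148, 0.0583 with the block, and 0.0296 with the code).

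The largest decrease in log2 value among the segments was that of Igkv5-39, which did not pass with group alone. Igkv5-39 read 19.2, 16.6 and 16.8 FPKM in controls and 12.1, 9.36 and 8.65 in CUMS. The groups did not overlap, and the log2 change of −0.76 lay just outside the threshold (limma adjusted p = 0.0514, and 0.0054 with the block). Igkv4-61 was low throughout, at 2.18, 3.67 and 2.68 FPKM in controls and 1.67, 1.402 and 1.06 in CUMS, with no overlap, a log2 change of −0.68 (limma adjusted p = 0.124, and 0.043 with the block). At the other end, Igkv4-78 read 0.322, 1.41 and 0 FPKM in controls and 3.93, 1.81 and 4.40 in CUMS. It passed the filter through its 3 CUMS libraries, with 1 control library at the minimum, so the filter favoured a rise. It had a log2 change of 1.52 that passed only with the header code as a term (limma adjusted p = 0.101, 0.056 with the block, and 0.028 with the code), and control replicate 3 is listed at 0. Its lowest CUMS library was above its highest control.

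**Figure D3:**
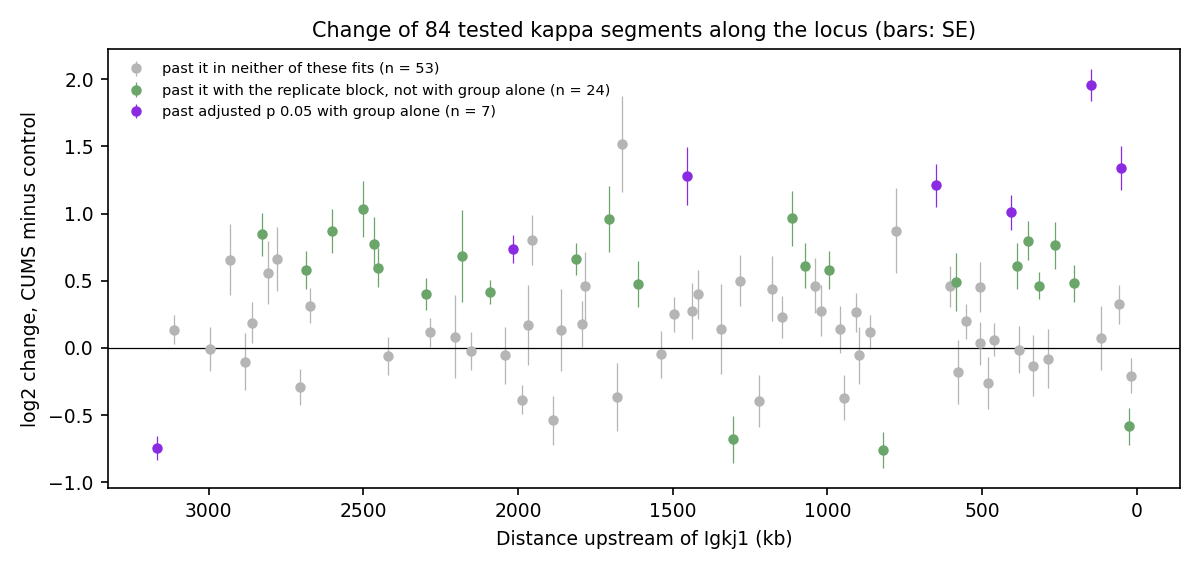
Log2 change, CUMS minus control, of the 84 tested kappa segments against their distance upstream of Igkj1 in kb, with bars for the SE of the fit with group alone. Colours mark the 7 segments called with group alone, 24 more called with the replicate block but not with group alone, and 53 called in neither of these fits. Changes above 0 were spread along the whole locus, and those below 0 lay between them.

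Changes above 0 were in the majority at every distance from Igkj1, where the median log2 change over all tested genes was −0.0017. The 32 tested segments within 1000 kb of Igkj1 had a median log2 change of 0.23 and a ratio of summed FPKM of 1.33. The 27 between 1000 and 2000 kb had 0.28 and 1.22, and the 25 beyond 2000 kb had 0.40 and 1.36. The shares above 0 were 22 of 32, 21 of 27 and 18 of 25. The same held for both orientations. Those on the plus strand, which join to Igkj segments by deletion, had 23 of 32 tested segments above 0 and a summed ratio of 1.40, and those on the minus strand, which join by inversion, had 38 of 51 and 1.25.

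By sequence family the kappa segments were less even. Over all tested genes 0.618% were called higher and 0.455% lower with group alone, and 3.49% and 4.31% with the block. Igkv6 had 8 of 9 tested segments above 0, with 1 called with group alone and 6 with the block, and its sum went from 74.8 ± 6.78 to 116.2 ± 7.10 FPKM (SD, n = 3 each). Igkv4, which has the most members at 33, had 18 of 22 above 0, with 1 called higher (6 higher and 1 lower with the block), and went from 76.6 ± 8.66 to 112.0 ± 5.41 FPKM. Igkv14 had 4 of 4 above 0, with none called with group alone and 2 with the block, and went from 43.7 ± 11.2 to 75.0 ± 6.37 FPKM. Igkv3 had 5 of 7 above 0, with 2 called higher (3 higher and 1 lower with the block), and went from 54.6 ± 7.95 to 82.6 ± 8.05 FPKM. In each of these 4 families the sums of the 3 CUMS libraries were above those of the 3 controls, and the same was true of Igkv1, Igkv8, Igkv10, Igkv11, Igkv16 and Igkv17. For Igkv11 the filter fixed this direction, because its 1 tested segment passed through its CUMS libraries alone. Over all tested genes, taken singly, 10% had all 3 CUMS libraries above all 3 controls. Igkv5, Igkv9, Igkv12, Igkv13 and Igkv15 overlapped between groups, and Igkv2 and Igkv19 were lower in each CUMS library than in any control. Igkv2 summed to 27.95, 27.04 and 24.89 FPKM in controls and 23.42, 22.64 and 23.25 in CUMS. Igkv12 summed to 46.9 ± 6.96 and 48.3 ± 6.30 FPKM with no segment called with group alone, the block or the header code. Igkv5 summed to 39.4 ± 6.49 and 34.0 ± 3.57 FPKM with 1 of 4 above 0, none called with group alone, and 1 higher and 1 lower with the block. Igkv8 had 4 of 8 above 0, with Igkv8-21 the 1 called, and summed to 49.5, 47.2 and 51.3 FPKM in controls and 60.3, 59.5 and 63.0 in CUMS.

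As a share of the kappa pool, which removes the level of the pool, 4 of the 17 families with a tested segment were higher in all 3 CUMS libraries than in any control, 5 were lower and 8 overlapped. Over all tested genes, taken singly and by FPKM, 10% were above and 12.1% below in this way. Family shares depend on each other, so these counts cannot be set directly against those percentages. Igkv6 held 11.3%, 11.6% and 11.2% of the pool in controls and 12.8%, 13.7% and 13.5% in CUMS. Igkv14 held 7.73%, 6.32% and 5.63% in controls and 8.73%, 8.75% and 8.30% in CUMS. Igkv3 and the sparse family Igkv11 were the other 2 on this side. The 1 tested segment of Igkv11 reached 1 FPKM in all 3 CUMS libraries and in no control. The filter therefore fixed the direction of Igkv11, and its place here is no support for a rise. On the lower side Igkv5 held 6.43%, 5.71% and 5.73% in controls and 3.87%, 4.11% and 3.70% in CUMS. Igkv2 went from 4.05% ± 0.28 to 2.66% ± 0.18, Igkv19, which is Igkv19-93 alone, from 3.69% ± 0.41 to 2.102% ± 0.11, Igkv12 from 7.11% ± 0.72 to 5.53% ± 0.52 and Igkv15 from 5.83% ± 0.91 to 4.74% ± 0.30 (SD, n = 3 each). Shares of a pool cannot all rise, so a lower share does not by itself mean fewer transcripts. The summed FPKM of Igkv2 and of Igkv19 was also lower in every CUMS library than in any control. These shares are descriptions and carry no test.

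**Figure D4:**
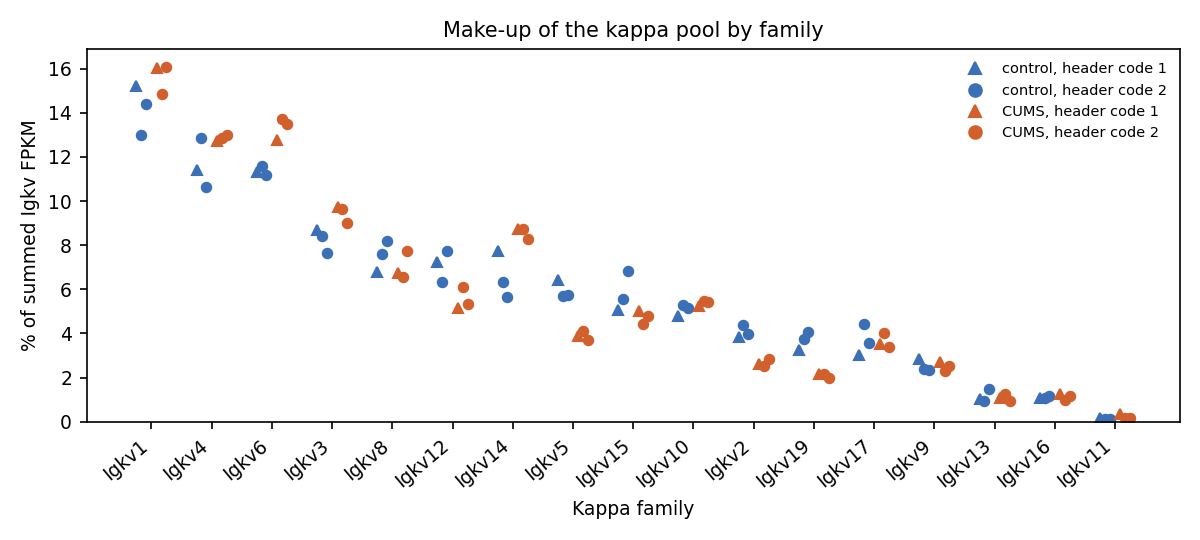
Percent of the summed kappa FPKM held by each of the 17 families with a tested segment, in order of their control mean, with 1 point per library. Controls are blue and CUMS orange, and triangles and circles mark header codes 1 and 2. Igkv6 and Igkv14 were higher in every CUMS library than in any control, and Igkv5, Igkv2 and Igkv19 lower.

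In the list of 9 heavy-chain constant genes and J chain, 8 were tested, and 3 rose and none fell. Ighg3, Ighg1 and Ighg2c, the constant genes of IgG subclasses used after class switching, were those 3. Ighg3 read 2.55, 2.24 and 2.56 FPKM in controls and 10.8, 6.35 and 7.15 in CUMS, a log2 change of 1.37 (limma adjusted p = 0.0179). Ighg1 had means of 10.8 ± 0.91 and 25.4 ± 5.48 FPKM and a log2 change of 1.14 (adjusted p = 0.0196 by limma), and Ighg2c 12.4 ± 3.79 and 30.5 ± 5.15 FPKM and 1.26 (adjusted p = 0.0343 by limma). None of their CUMS libraries overlapped the controls. Leaving out CUMS replicate 3, control replicate 2 or control replicate 3 brought all 3 above the threshold, with adjusted p from 0.0728 to 0.169, and without CUMS replicate 1 or 2 Ighg2c was at 0.0844 and 0.144 and, without CUMS replicate 2, Ighg3 at 0.0522. Without the filter on low values Ighg1, Ighg2c and Ighg3 were at 0.111, 0.147 and 0.112. Ighg2b, a further IgG constant gene, is outside the rule for named genes and was picked after its values were seen. It read 30.6, 25.6 and 18.5 FPKM in controls and 42.2, 29.7 and 34.5 in CUMS, where the groups overlapped. Its log2 change was 0.50 (limma adjusted p = 0.279, 0.0548 with the block, and 0.0292 with the header code as a term). Jchain, which links IgM and IgA chains, had a log2 change of 0.48 (limma adjusted p = 0.177, 0.0383 with the block, and 0.0154 with the header code). Ighm, Ighd and Igha, which encode the heavy chains of IgM, IgD and IgA, had log2 changes of −0.20, 0.23 and 0.13 and passed with group alone, the block or the header code in no case (limma adjusted p = 0.481, 0.305 and 0.825, and 0.123, 0.112 and 0.228 with the block).

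Of the 15 light-chain constant and joining segments 12 were tested and none passed with group alone. With the block 1 was higher and 1 lower. The higher one was Igkj2, a kappa J segment, with 89.4, 71.7 and 67.6 FPKM in controls and 103.5, 106.6 and 104.9 in CUMS, no overlap and a log2 change of 0.47 (limma adjusted p = 0.121, and 0.0346 with the block). The lower one was Iglc1. The list's median log2 change was −0.21.

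In the list of 10 genes of V(D)J recombination none passed with group alone, and 3 were lower with the block: Rag1, Rag2 and Dntt, which adds untemplated bases at the joins. In the lists that follow, Blnk, Il7r, Spib, Bank1, Tnfrsf17, Fkbp11, Slamf7 and Cd8b1 are outside the rule for named genes and were picked after their values were seen. Rag2 read 2.33, 2.08 and 2.21 FPKM in controls and 1.24, 1.162 and 1.234 in CUMS, with no overlap and a log2 change of −0.53 (limma adjusted p = 0.0725, and 0.0246 with the block). Rag1 read 8.88, 13.99 and 12.28 FPKM in controls and 6.84, 9.79 and 9.02 in CUMS, where the groups overlapped (limma adjusted p = 0.35, and 0.0276 with the block). The repair genes of the list, such as Xrcc6, passed in none of the 3 fits.

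In the list of 10 genes of the surrogate light chain and pre-B receptor, through which large pre-B cells are tested before light-chain joining, none passed with group alone. With the block 3 were lower (Vpreb3, Cd79a and Blnk) and 1 higher (Il7r), and the median log2 change was −0.27. Vpreb1 and Igll1, which form the surrogate light chain, had log2 changes of −0.37 and −0.10 (limma adjusted p = 0.255 and 0.846), and Vpreb1 passed with the header code as a term (0.0457). Of 13 regulators of light-chain joining and transcription none passed with group alone and 2 were lower with the block, Spib and Pou2af1, a coactivator of immunoglobulin promoters. Pou2af1 read 46.8, 46.5 and 43.3 FPKM in controls and 37.3, 35.5 and 34.0 in CUMS, with no overlap (limma adjusted p = 0.117, and 0.0285 with the block). Pou2f2, its DNA-binding partner, had a log2 change of −0.18 (limma adjusted p = 0.828).

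Markers of mature B cells and plasma cells, which carry these transcripts, are given as sums, and such sums weigh the most abundant markers most. Single markers of both lists below differed in both directions. The median log2 change was −0.04 for the mature B cell markers and −0.19 for the plasma cell markers. The 12 mature B cell markers summed to 376.5 to 398.0 FPKM in controls and 349.4 to 362.6 in CUMS. None passed with group alone, and Bank1 was higher with the block. Cd37, the largest part of this sum, had means of 162.7 FPKM in controls and 146.7 in CUMS. Ms4a1, which encodes CD20, had means of 26.6 ± 2.61 and 27.4 ± 0.71 FPKM (limma adjusted p = 0.877). The 12 plasma cell markers summed to 145.4 to 173.3 FPKM in controls and 126.1 to 153.2 in CUMS, none passed with group alone, and Slamf7 was lower with the block. No gene of either list was at 0 in all 6 libraries. Prdm1, the transcription factor that defines plasma cells, was too low to be tested, at 0.203 to 0.477 FPKM in controls and 0.272 to 0.590 in CUMS. Tnfrsf17, a survival receptor of plasma cells, was also near 0, at most 0.110 FPKM in controls and 0.289 in CUMS. Sdc1, Xbp1 and Mzb1, also of this list, had log2 changes of −0.29, −0.22 and −0.27. Sdc1 passed in none of the 3 fits, and Xbp1 and Mzb1 passed with the header code as a term alone (limma adjusted p = 0.0414 and 0.0362). Fkbp11 of the same list went the other way, with a log2 change of 0.285 that passed in none of the 3 fits. The part of cell numbers in the changes of the segments was not tested.

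Of the 6 germinal centre and hypermutation genes, 4 were tested and none passed with group alone, and Bcl6 was lower with the block. The 10 T cell markers summed to 50.5 to 69.0 FPKM in controls and 62.9 to 77.6 in CUMS, with none called with group alone and Cd8b1 higher with the block. The 6 markers of plasmacytoid dendritic cells summed to 207.2 to 250.7 and 173.5 to 189.0 FPKM, with none called with group alone and Bst2, which is also induced by interferon, lower with the block (limma adjusted p = 0.0514, and 0.0168 with the block). With the header code as a term more calls came over all tested genes, 6.06% higher and 7.31% lower against 3.49% and 4.31% with the block. The lists also gave more: 5 higher in the heavy-chain list, 1 higher and 6 lower in the pre-B list, 4 lower among the regulators, 3 lower among plasma cell markers, 2 higher among T cell markers and 2 lower among those of plasmacytoid dendritic cells. The other lists gave as many calls as with the block, apart from the 1 neutrophil marker.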

How the data were processed

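Bone marrow RNA of 3 control and 3 CUMS samples was sequenced as read pairs of 151 bases each after a TruSeq library preparation, per the labels' protocols. Per the submitters' processing notes, the mm10 build, the aligner HISAT2 2.1, the counter featureCounts 1.6.4, the trimmer cutadapt 1.16.5, the demultiplexer bcl2fastq 2.19 and the package DESeq2 2.11.40.6 were used. Which tool gave the values, how reads shared between genes were counted and whether strand was used are not given in the sources used here. The deposited values are FPKM, a unit read from the values because no header or label names it. Their low values did not fall on whole multiples (27.8% to 30.3% within 0.1 of a step), so reads were not recovered, the depth is unknown and precision rests on the spread between libraries. The labels do not say that libraries came from separate animals, so a p-value here reflects only how much these samples vary, which may be technical. An exact permutation test of 3 against 3 could not go below 0.1.

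Genes at 1 FPKM or more in at least 3 libraries were fitted with limma-trend on log2(FPKM + 1), with group as the only term and Benjamini-Hochberg adjustment over all of them (limma 3.58.1 in R 4.3.3). The scale understates changes of low genes. Tables, plots and sequence comparisons used Python 3.11.15 with pandas 2.3.3, numpy 2.4.6, edlib 1.3.9.post1 and matplotlib 3.10.9. Fits with group alone and with the header code as a term were run on simulated data, and a minimum recovery was required of the latter only. Alternatives were other pseudocounts, filters and scalings, a replicate block, the header code as a term or its code 2 alone, and each library left out.

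The titles number the replicates. Deviations from group means correlated by 0.689, 0.452 and 0.363 between libraries with the same number. Between replicates 2 and 3 crossed they correlated by 0.459 and 0.362. These values set replicate 1 apart but do not show that replicates 2 and 3 pair by number. The block is given beside results it changes. Replicate 1 of both groups also shares header code 1.

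The segments, tests and 12 lists of 116 genes were chosen with earlier results of these data known. Named genes were every called segment, the 10 most abundant, the 5 largest changes each way (mean log2 value 1 or more), the lambda segments, a fixed set of B lineage genes, and in each list the called and up to 3 most abundant others. Positions come from RefSeq (GRCm38.p6), and orientation, sequences and identities from GENCODE M21, which gave a sequence for 163 segments. Promoters were not analysed here, and 1 listed gene is not reported here.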

Additional observations from a re-analysis of the deposited data

How the results depend on the processing

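Over all genes 132 were called. This became 36 without a filter beyond a value above 0, 199 with quantile normalization, 959 with the replicate block, 1645 with the header code as a term, 2173 in the 4 libraries of header code 2, and 17 to 262 with 1 library left out. The 6 segments called higher became 1 without the filter, 27 with the replicate block, 32 with the header code, 35 in header code 2 alone, and 1 to 12 with 1 library left out. The 1 called lower became 4 after scaling to the same total, 2 with quantile normalization, 6 with the replicate block, 7 with the header code, 7 in header code 2 alone, and 0 to 2 with 1 library left out. The cause of these shifts was not tested. Without the filter 27669 genes entered the fit and the adjustment, in place of 12302. The median log2 change of 0.28 was 0.11 without the filter and 0.21 to 0.40 with 1 library left out. The ratio of the kappa sums was 1.15 after division by Igkc, and that of the lambda sums 0.897 after division by Iglc1 to Iglc3. With 1 library left out they were 1.28 to 1.40 and 0.718 to 0.759.

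No named segment changed direction under any alternative run, and the replicate block changed no call of a reported gene other than those given beside the results. Genes outside the segments that changed sign passed in none of those fits. With 1 library left out, Igha ranged from −0.0474 to 0.3095 (−0.0001 without control replicate 2), Igll1 from −0.2104 to 0.0948, Ms4a1 from −0.013 to 0.1196, Xrcc6 from −0.0149 to 0.1559, Ngp from −0.2231 to 0.0192, Pou2f2 from −0.4368 to 0.0794, S100a8 from −0.1749 to 0.0907 and S100a9 from −0.1664 to 0.09. In header code 2 alone Igll1 was at 0.0122, S100a8 at 0.1003 and S100a9 at 0.0966, and Ngp was at 0.1111 with quantile normalization.

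The depth in reads is unknown, so the 39 segments listed at 0 have no upper limit here. Transcripts of rearranged and of unjoined segments, and reads of near copies, were not separated by these values.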
